A study of Populus trichocarpa with 378 samples.

Results

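The construct i33 carried RNA interference directed at PtrCAD1, and its 9 libraries of stem-differentiating xylem were chosen by their labels from the 378 labelled libraries of the series. They were compared with the 3 wildtype libraries of the same planting batch, batch 3, which held 59 libraries in all. The trees of both groups were Populus trichocarpa of the genotype Nisqually-1, grown in a greenhouse and harvested at 6 months. The i33 trees had been transformed with Agrobacterium, and the construct was driven by the xylem-specific promoter of a 4-coumarate:CoA ligase gene. The wildtype trees carried no construct. The i33 libraries came from lines 2, 5 and 10, each a single transformation event with 3 pools of clonally propagated trees, so that the p-values of a line measure the spread between its pools and not between transformation events. A library is named by its line and pool, so that i33-10-2 is pool 2 of line 10, and the wildtype pools are WT-1 to WT-3. Of the other constructs of batch 3, i34 was directed at PtrCAD2 (8 libraries), i35 at both PtrCAD1 and PtrCAD2 (9 libraries), and o65 and o66 combined knockdown of PtrCAD1 with overexpression of PtrCAD2 (15 libraries). The constructs i20, directed at PtrC3H3 (8 libraries), and i69, directed at PtrC3H3, PtrC4H1 and PtrC4H2 (7 libraries), served only to find table entries by the pattern of the labels.

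Cinnamyl alcohol dehydrogenase (CAD) reduces hydroxycinnamaldehydes, such as coniferaldehyde and sinapaldehyde, to the monolignols that are exported to the cell wall and polymerized to lignin. Stem-differentiating xylem is the newly formed wood in which cells deposit their lignified secondary walls, and CAD is among the enzymes of this pathway expressed there. Plants with low CAD activity are known for incorporating aldehydes into their lignin and for coloured wood. The count table lists 41334 entries by Potri identifiers without gene names, and 0 of them matched the 34621 genes of the reference table, of assembly version 4.1. For this reason no entry is given a gene name or a role here, and the tissue was not checked against marker genes.

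The i33 libraries held 12.3 to 37.6 M counts and the wildtype libraries 19.8 to 27.6 M, with i33-10-1 the deepest and the library labelled i33-5-2 the shallowest. The 10 largest entries took 9.66% of the counts of i33-2-1 and 3.70 to 4.93% of those of the other i33 libraries. The library labelled i33-5-2 was unlike the other pools of its line and was closest to WT-2. Over the 20781 entries with at least 100 counts in the sum of these libraries, 2.04% lay past the 5% point of the chi-square distribution, and their counts thus differed by less than the sampling noise at most entries. In the other pairs of batch 3, of 1711 pairs in all, the share was at least 18.7%, and over the 50 pairs of pools of the same line its median was 39.8%. The library labelled i33-5-2 gave 62.4% with i33-5-1 and 61.4% with i33-5-3, while i33-5-1 and i33-5-3 gave 39.8% with each other. Its count was above that of WT-2 in 69 of the 41334 entries, with a median ratio of counts of 0.636 against a ratio of totals of 0.623. The median chi-square of this pair was 0.385 of the value for independent sampling, against at least 1.93 in the other pairs of batch 3. Whether these libraries share reads was not tested. If they do, each value with all 12 libraries enters wildtype reads again under the label of i33. Every comparison was therefore computed with all 12 libraries as labelled and without the library labelled i33-5-2, and the second choice was made after the data were seen.

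**Figure D1:**
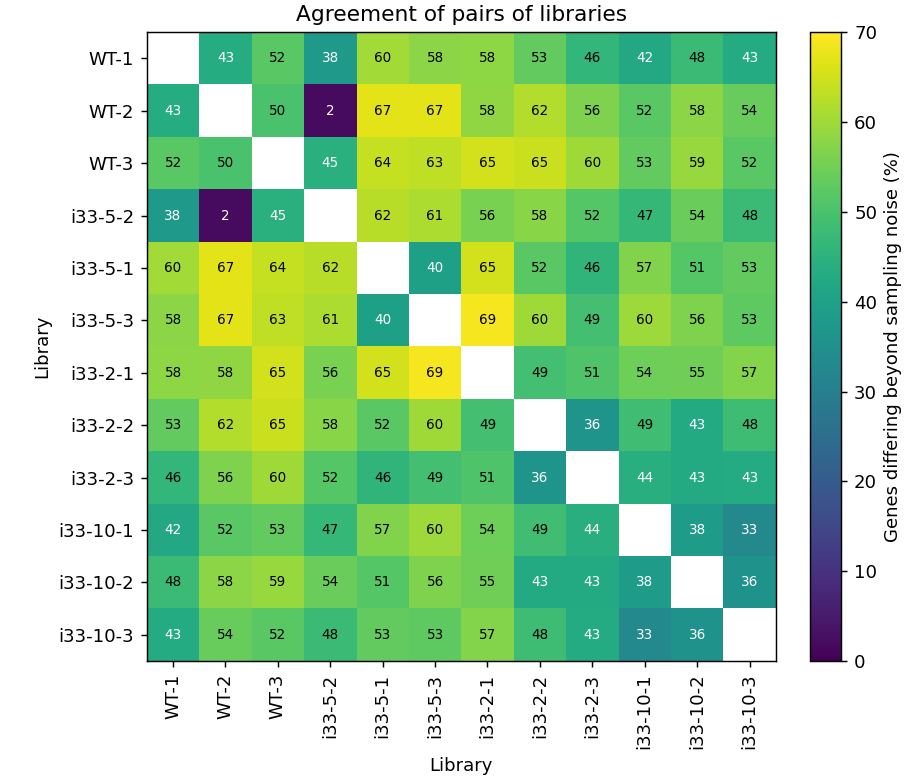
Heat map of the agreement of pairs among the 9 i33 and 3 wildtype libraries, which label both axes, with each cell and its colour giving the percentage of entries past the 5% point of the chi-square distribution. The library labelled i33-5-2 and WT-2 meet at 2.04%, while i33-5-1 and i33-5-3 meet at 39.8%.

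The targeted gene could not be looked up by name, so the labels of other constructs were used to find an entry that follows them. In i35, o65 and o66, all labelled with knockdown of PtrCAD1, against i34, i20 and i69, which are not, Potri.009G095800 had the smallest p, with a log2 difference of -3.98 ± 0.08 (SE) and p = 2.35e-43. The next smallest p was 3.57e-17, and 36.2% of the entries tested passed the threshold of an adjusted p of 0.05 (edgeR, Benjamini-Hochberg). Neither the i33 nor the wildtype libraries entered that search. The entry is described by its identifier, since no table pairs it with PtrCAD1.

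Potri.009G095800 had 3451, 2746 and 2581 CPM in the wildtype pools, CPM being counts scaled to library size with the TMM factors of batch 3. In line 10 it had 1730, 959 and 1677 CPM, which averaged 49.7% of the wildtype mean. In line 2 it had 337, 488 and 329 CPM, averaging 13.2%. All pools of these lines lay below all wildtype pools, and the pools of line 2 lay below those of line 10. In line 5 the pools i33-5-1 and i33-5-3 had 156 and 151 CPM, averaging 5.24% of the wildtype mean, and the library labelled i33-5-2 had 2751 CPM, or 94.0%, inside the wildtype range. The levels of i33-5-1 and i33-5-3 lay inside the range of i35, at 137 to 236 CPM, and below that of o65 and o66, at 158 to 252 CPM. Those of line 10 lay between these and i34, at 2100 to 3466 CPM.

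With all 12 libraries the log2 difference of Potri.009G095800 between i33 and wildtype was -1.62 ± 0.73 (adjusted p = 0.304), and without the library labelled i33-5-2 it was -2.01 ± 0.66 (adjusted p = 0.0942). Neither passed the threshold in this fit of 2 groups, in which each pool was a replicate. With the pools of each line summed, the adjusted p were 0.227 and 0.256. Fitted by line without that library, line 5 was lower than wildtype, with a log2 difference of -4.25 ± 0.32 (adjusted p = 0.000248), and so was line 2, with -2.93 ± 0.25 (adjusted p = 0.00177). Line 10 differed by -1.02 ± 0.24 (adjusted p = 0.0897) and did not pass. As labelled, none of the lines passed, at adjusted p = 0.0778 for line 2, 0.521 for line 5 and 0.605 for line 10. Line 5 was lower than line 2, with a log2 difference of -1.32 ± 0.27 (adjusted p = 0.0296), and lower than line 10, with -3.23 ± 0.30 (adjusted p = 0.000933) without the library labelled i33-5-2. With it, the difference of line 5 from line 2 was 1.41 ± 0.90 (adjusted p = 0.423), of the opposite sign.

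**Figure D2:**
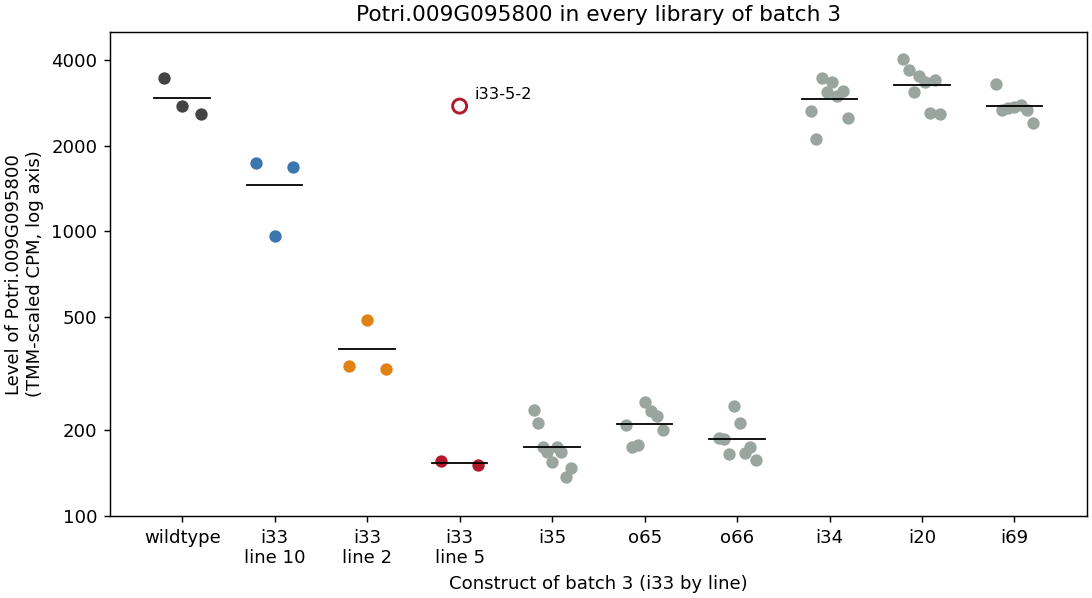
Level of Potri.009G095800 in CPM on a log axis in the wildtype pools, the 3 lines of i33 and the other constructs of batch 3, with each point standing for a library and each line for a group mean (for line 5 without the library labelled i33-5-2). The library labelled i33-5-2, the open circle, sits at 2751 CPM, within the wildtype range, while i33-5-1 and i33-5-3 sit at 156 and 151 CPM.

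A second entry was sought by the labels for the overexpression of PtrCAD2, here by the largest rise and not by the smallest p. In o65 and o66 against i35, Potri.016G078300 had the largest rise, 7.86 ± 0.59 on the log2 scale, with 3.5 for the next and 34.6% of the entries tested past the threshold. It had 3.55, 6.62 and 4.91 CPM in the wildtype pools and 145 to 1301 CPM in o65 and o66. The i33 libraries, at 2.71 to 12.8 CPM, overlapped the wildtype range. In i34, directed at PtrCAD2, line 2 lay above that range at 22.2 and 21.4 CPM, and the other lines had 0.954 to 4.10 CPM. The log2 difference of Potri.016G078300 between i33 and wildtype was 0.07 ± 0.47 without the library labelled i33-5-2 (adjusted p = 0.942). With that library it was 0.11 ± 0.44 (adjusted p = 0.927).

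The distance of a library from wildtype was taken as the root mean square, over the 25716 entries that averaged 1 CPM or more in batch 3, of its difference in log2(CPM + 1) from the wildtype mean. It describes how far whole profiles lay apart, and it was not tested. The wildtype pools, each measured against the other 2, lay at 0.394, 0.379 and 0.389. The pools of line 10 lay at 0.322, 0.450 and 0.297, those of line 2 at 0.473, 0.421 and 0.380, and those of line 5 at 0.518, 0.273 for the library labelled i33-5-2, and 0.479. Without the library labelled i33-5-2, line 5 lay above lines 2 and 10 and wildtype, while lines 2 and 10 overlapped each other and the wildtype pools. The i33 libraries were measured against the mean of 3 wildtype pools and the wildtype pools against that of 2, so their distances are not fully alike. With the mean of WT-1 and WT-3 as the reference, i33-2-1 lay at 0.499, above i33-5-3 at 0.480, and the library labelled i33-5-2 at 0.389. By this common reference WT-2 lay at 0.379, below line 2, whose lowest pool was i33-2-3 at 0.388. It lay inside the range of line 10, at 0.296 to 0.433.

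Whether i33 as a construct differed from wildtype depended on the library labelled i33-5-2. With all 12 libraries, 0 of 28327 entries passed in edgeR (0%), while 4539 had an unadjusted p under 0.05 and DESeq2 called 551 (1.95%). Without the library labelled i33-5-2, 1458 of 28308 entries passed (5.15%), of which 520 were higher and 938 lower in i33. This fit took pools of the same line as independent, and with the pools of each line summed 0 entries passed in edgeR, with 4688 at an unadjusted p under 0.05. On the unsummed pools DESeq2 called 3395. The 1458 calls of edgeR had a median size of 0.52 on the log2 scale, and 88 rose and 110 fell by at least 2-fold. Without the TMM factors edgeR gave 856 higher and 342 lower. The count was 26 without WT-2 and i33-5-2 together (0.0905%), 22 without WT-3, 763 without i33-5-1, 715 without i33-2-1, 622 without i33-10-2, 466 without i33-2-2, 434 without i33-2-3 and 3 without all pools of line 2. A lower level in these tissues can come from fewer cells of a type or from less RNA per cell, which cannot be told apart.

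The entries named next had the smallest p among those that passed without the library labelled i33-5-2 and whose 8 i33 libraries all lay outside the wildtype range, so that library took no part in choosing them and the separation of the groups was fixed by the choice. With the pools of each line summed, none of the 4 passed, at adjusted p = 0.12 to 0.171. Potri.014G072300 had 22.6, 27 and 22.2 CPM in wildtype and 61.6 to 92.7 CPM in the other 8 i33 libraries, a rise of 1.56 ± 0.14 on the log2 scale (adjusted p = 0.00236). The library labelled i33-5-2 had 27.9 CPM. Potri.010G061400 had 0.381 to 0.441 CPM in wildtype and 1.29 to 2.29 CPM in the 8 libraries, a rise of 2.05 ± 0.23 (adjusted p = 0.00532). Potri.007G126600 fell by 0.79 ± 0.07 (adjusted p = 0.00203), from 38.7, 40.4 and 43 CPM to between 21.4 and 26.4 CPM, with 39.6 CPM in the library labelled i33-5-2. Potri.006G233600 had 22.8, 39.8 and 32.3 CPM in wildtype and 9.60 to 13.5 CPM in the 8 libraries, and fell by 1.49 ± 0.16 (adjusted p = 0.00532). With all 12 libraries Potri.014G072300 and Potri.007G126600 had log2 differences of 1.47 ± 0.26 and -0.68 ± 0.15 (adjusted p = 0.253 for each).

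Line 2 was compared with wildtype in the same fit as the other lines, and the order of the lines by their number of calls was not tested. As labelled, 2256 entries passed (7.96%), 1275 higher and 981 lower, and without that library 4547 of 28881 passed (15.7%), 2279 higher and 2268 lower. The median size of the latter was 0.53 on the log2 scale, and 440 rose and 212 fell by at least 2-fold. Without the TMM factors, 2082 were higher and 1277 lower. The count of 2256 became 0 without i33-2-1, 0 without i33-2-2, 12 without WT-3, 172 without WT-2, 776 without i33-10-1, 878 without i33-10-3, 1340 without i33-2-3 and 1444 without i33-10-2. The count of 4547 became 1787 without i33-2-1, 1877 without i33-2-2, 2623 without WT-3 and 3028 without WT-2. The order of the lines by number of calls turned under some settings. In the fit without the library labelled i33-5-2, line 5 had more calls than line 2 without TMM factors (4416 against 3359), without WT-3 (2839), without i33-2-1 (2948) and without i33-2-2 (2671). As labelled, line 10 had 5 calls where line 2 had 0, without i33-2-1 or i33-2-2.

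Potri.019G126400 rose in line 2 by 1.92 ± 0.12 (adjusted p = 0.000522 without the library labelled i33-5-2), from 23.6, 19.3 and 23.5 CPM in wildtype to 93.8, 80.8 and 75.9 CPM. Potri.008G056500 rose by 0.75 ± 0.07 (adjusted p = 0.00177), from 9.48 to 9.89 CPM in wildtype to 15.8 to 16.7 CPM. Potri.009G058100 fell by 1.34 ± 0.10 (adjusted p = 0.00139), from 47.1, 48.2 and 60 CPM to 20.9, 20.2 and 20.1 CPM. Line 10 and the pools i33-5-1 and i33-5-3 lay between these levels, at 28.8 to 38.2 CPM. Potri.008G195000 fell by 0.91 ± 0.08 (adjusted p = 0.00177), from 153 to 163 CPM in wildtype to 79.1 to 87.7 CPM. As labelled, the smallest p belonged to Potri.017G107500, higher by 1.44 ± 0.16, and Potri.012G119900, higher by 2.15 ± 0.24, and among the entries that fell to Potri.009G058100 and Potri.001G036900. In line 2 Potri.017G107500 had 106 to 131 CPM, against 36.3 to 48.9 CPM in wildtype.

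Line 5 as labelled gave 0 calls of 28327 entries against wildtype in edgeR (0%), with 3236 at an unadjusted p under 0.05 and 71 called by DESeq2 (0.251%). Without the library labelled i33-5-2 the line kept 2 pools, and 3386 of 28881 entries passed (11.7%), 1576 higher and 1810 lower. Their median size was 0.69 on the log2 scale, and 443 rose and 539 fell by at least 2-fold. Without the TMM factors the split was 3411 higher and 1005 lower, and the median of all entries shifted by 0.153 on the log2 scale. The count became 545 without i33-5-1, 1706 without i33-5-3 and 2206 without WT-2.

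Potri.001G256400 had 15.9 to 19.0 CPM in wildtype and 64.8 and 70.3 CPM in i33-5-1 and i33-5-3, a rise of 1.92 ± 0.09 (adjusted p = 2.41e-05). Line 10, at 18.3 to 20.3 CPM, overlapped the wildtype range and line 2, at 25.6 to 26.6 CPM, lay above it. Among the other CAD constructs this entry averaged 54.5 CPM in i35, 34.4 in o65, 73.2 in o66 and 17.4 in i34, so its rise was not particular to i33. Potri.019G126400 had 136 and 115 CPM in i33-5-1 and i33-5-3, a rise of 2.50 ± 0.13 (adjusted p = 2.41e-05). Potri.014G095600 had 11.2 to 11.6 CPM in wildtype, 11.8 to 14.9 CPM in line 10, 5.63 to 8.22 CPM in line 2, and 0.572 and 0.605 CPM in i33-5-1 and i33-5-3, the latter from 13 and 11 counts. In line 5 it fell by 4.25 ± 0.22 (adjusted p = 2.41e-05). Potri.016G062200 fell by 2.46 ± 0.14 (adjusted p = 5.17e-05), from 18.5 to 25 CPM in wildtype to 4.14 and 3.96 CPM.

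Line 10 differed from wildtype at fewer entries in edgeR than in DESeq2. With all 12 libraries 6 entries passed in edgeR (0.0212%), 3 higher and 3 lower, and without the library labelled i33-5-2 the number was 62 of 28881 (0.215%), 28 higher and 34 lower. DESeq2 called 305 and 1525 entries. Without the TMM factors the edgeR split was 5 higher and 3 lower with all 12 libraries. It was 27 higher and 10 lower without the library labelled i33-5-2. The count of 6 became 1 without i33-10-1 or i33-10-2 and 3 without WT-1 or i33-10-3. The count of 62 moved with every library left out, to 592 without WT-1, 20 without WT-2, 16 without WT-3, 4, 6 and 10 without i33-10-1, i33-10-2 and i33-10-3, 11, 11 and 20 without i33-2-1, i33-2-2 and i33-2-3, and 29 without i33-5-1 or i33-5-3.

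Potri.009G154800 had 0.747, 0.441 and 1.22 CPM in wildtype and 9.24, 8.23 and 7.97 CPM in line 10, a rise of 3.35 ± 0.28 with all 12 libraries (adjusted p = 0.004). Lines 2 and 5, at 0.495 to 1.24 CPM, overlapped the wildtype range. Potri.009G154300 rose in line 10 by 2.29 ± 0.23 (adjusted p = 0.00649). The neighbouring identifiers Potri.009G154100 and Potri.009G154200, chosen after their values were seen, held 40, 21 and 10 counts in the pools of line 10, identical in both entries, and 0 counts in the other i33 and wildtype libraries. In line 10 Potri.005G174800 fell by 2.33 ± 0.23 (adjusted p = 0.00649), from 2.05, 2.32 and 2.89 CPM in wildtype to 0.524, 0.419 and 0.490 CPM. This entry spread from 0.545 to 5.27 CPM in i34 and from 0.451 to 3.05 CPM in o65, so such low levels were not particular to line 10. Its lowest level was 0.965 CPM in i35 and 2.62 CPM in o66. Potri.013G080700 fell by 1.16 ± 0.12 (adjusted p = 0.00649), to 10.4, 10.2 and 13.1 CPM, with 21.5 to 28.5 CPM in all other libraries of i33 and wildtype. The entries with the smallest p without the library labelled i33-5-2 included Potri.007G088100 and Potri.001G036900, which line 10 shared with a further line.

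Potri.007G088100 had 0.607, 1.43 and 1.37 CPM in wildtype, 27.8, 31.1 and 36.2 CPM in line 10, and 30.2 and 25.1 CPM in i33-5-1 and i33-5-3. In line 2 it had 2.46, 2.27 and 0.804 CPM, and in the library labelled i33-5-2 0.433 CPM. It rose in line 10 by 4.78 ± 0.35 (adjusted p = 0.00227) and in line 5 by 4.6 ± 0.36 (adjusted p = 0.000304). The difference of line 2 from wildtype was 0.71 ± 0.40 (adjusted p = 0.25), and line 10 lay above line 2 by 4.06 ± 0.33 (adjusted p = 0.0035). Potri.001G036900 had 994, 1249 and 1713 CPM in wildtype, 293, 297 and 349 CPM in line 10, 355, 345 and 329 CPM in line 2, and 823 and 833 CPM in i33-5-1 and i33-5-3. It fell by 2.09 ± 0.17 in line 10 (adjusted p = 0.00227) and by 1.94 ± 0.17 in line 2 (adjusted p = 0.00177). In line 5, where Potri.009G095800 was lowest, it fell by 0.67 ± 0.19 (adjusted p = 0.0490), and it was higher there than in line 2 by 1.27 ± 0.18 (adjusted p = 0.00936).

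**Figure D3:**
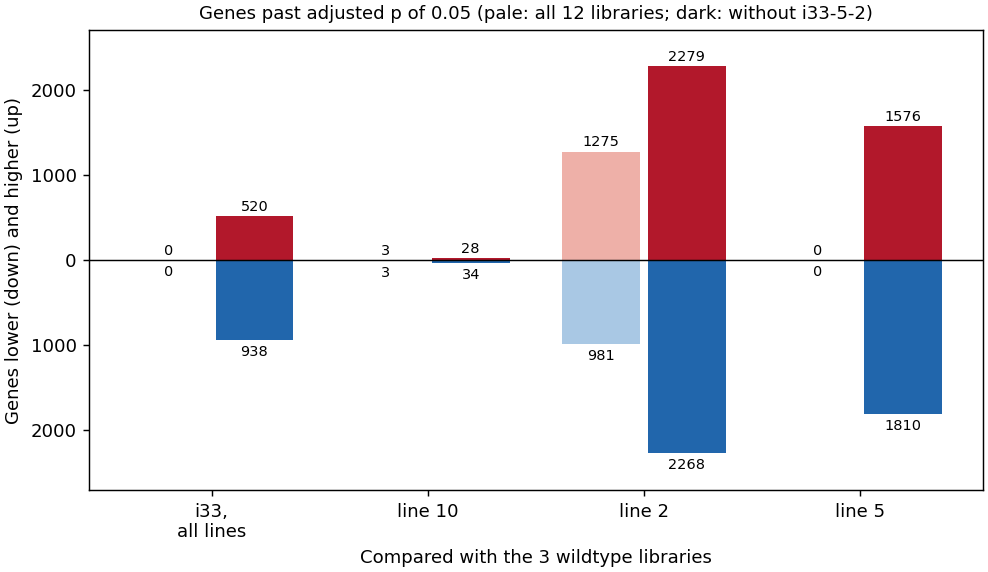
Number of entries with an adjusted p under 0.05 in edgeR for i33 and each of its lines against wildtype, with bars upwards for entries higher and downwards for entries lower than wildtype, pale with all 12 libraries and dark without the library labelled i33-5-2. Line 2 has bars of 1275 and 981 entries with all libraries, where line 5 has 0, and of 2279 and 2268 without that library.

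**Figure D4:**
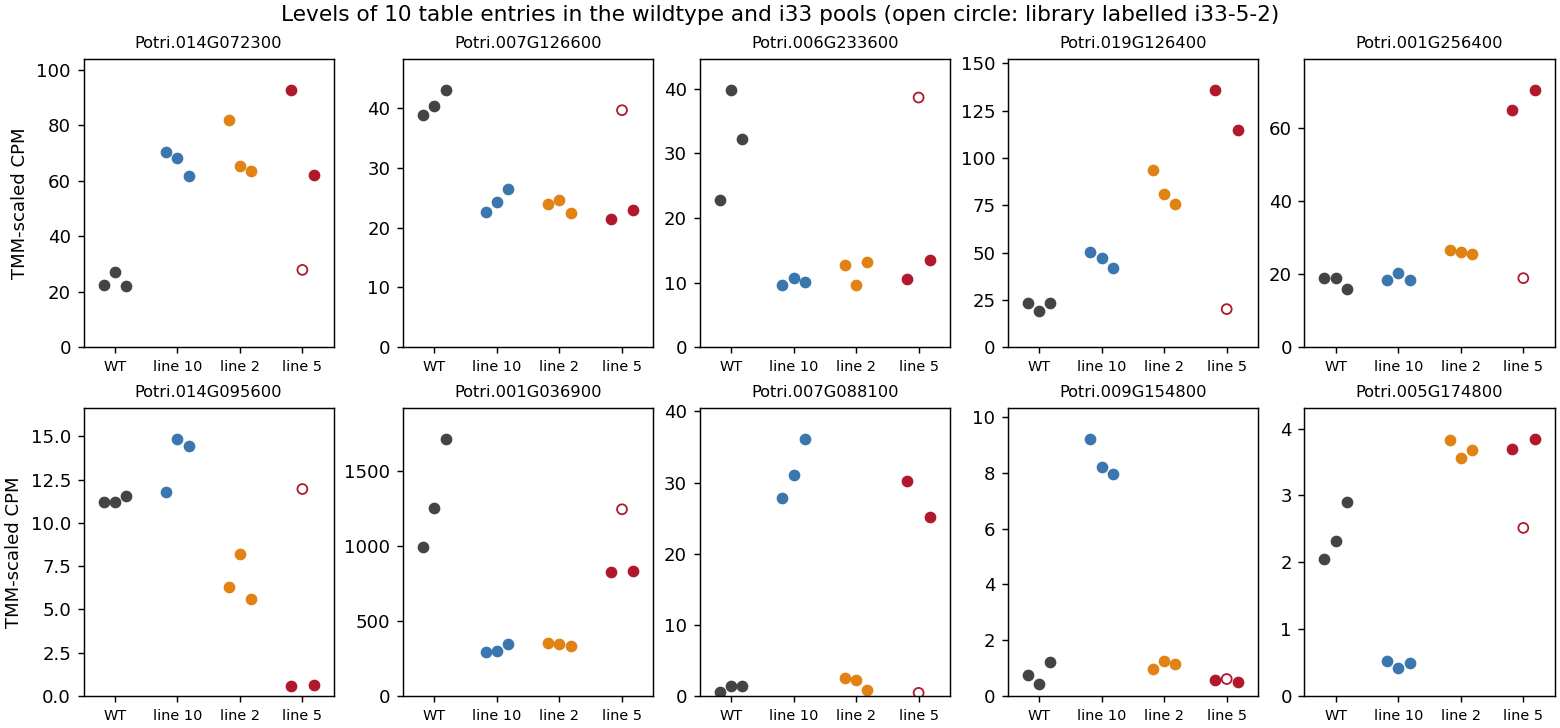
Levels in CPM, on linear axes that start at 0, of 10 entries named in the text, with each point standing for a wildtype or i33 library and the open circle for the library labelled i33-5-2. Potri.007G088100 has 27.8 to 36.2 CPM in line 10 and 30.2 and 25.1 CPM in i33-5-1 and i33-5-3, but 0.804 to 2.46 CPM in line 2.

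The lines also differed from each other. Over the 3 lines together, DESeq2 called 2016 entries with all libraries and 3564 without the library labelled i33-5-2. In edgeR an F-test called 37 of 28327 entries with all libraries (0.131%) and 1434 of 28881 without the library labelled i33-5-2 (4.97%). The latter became 2362 without WT-3, 734, 699 and 456 without i33-10-1, i33-10-2 and i33-10-3, 477 without i33-2-1, 522 without i33-2-2, 345 without i33-5-1 and 198 without i33-5-3. The former became 101 without WT-3, 2, 2 and 3 without i33-10-1, i33-10-2 and i33-10-3, 5, 2 and 5 without i33-2-1, i33-2-2 and i33-2-3, and 3 without i33-5-3. Line 5 lay between the other lines in 190 of the 1434 entries (13.2%), line 2 in 631 (44%) and line 10 in 610 (42.5%), against 26, 36 and 38% over all entries tested. These entries were chosen for differing between the lines in the same libraries, and line 5 had 2 pools there, so the shares are not independent of the choice. With all libraries the shares of the 37 entries were 18.9, 32.4 and 48.6% for lines 5, 2 and 10, against 29.2, 31.8 and 39.0% over all entries tested.

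Line 5 against line 2 gave 69 calls as labelled (0.244%), 21 higher and 48 lower, and 1205 without the library labelled i33-5-2 (4.17%), 543 higher and 662 lower in line 5. Line 5 against line 10 gave 17 (0.0600%), 6 higher and 11 lower, and 1269 (4.39%), 633 higher and 636 lower. Line 10 against line 2 gave 3 (0.0106%), 1 higher and 2 lower, and 24 (0.0831%), 11 higher and 13 lower. DESeq2 called 1500, 816 and 579 entries in these comparisons as labelled, and 2245, 2407 and 1045 without the library labelled i33-5-2. Without the TMM factors the splits without the library labelled i33-5-2 were 818 higher and 381 lower for line 5 against line 2, with a shift of the median of all entries by 0.121, and 730 higher and 391 lower for line 5 against line 10. As labelled, they were 4 higher and 2 lower for line 5 against line 2, and the factors of DESeq2 in edgeR gave 3 higher and 10 lower for line 5 against line 10.

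Single libraries moved these counts as well. Of the counts without the library labelled i33-5-2, that of line 5 against line 2 became 1879 without WT-3, 768 without i33-10-3, 384 without i33-2-1, 271 without i33-2-2, 339 without i33-5-1 and 92 without i33-5-3. That of line 5 against line 10 became 505, 774 and 397 without i33-10-1, i33-10-2 and i33-10-3, 283 without i33-5-1 and 247 without i33-5-3. That of line 10 against line 2 became 48 without WT-1, 303 without WT-3, 7, 11 and 3 without i33-10-1, i33-10-2 and i33-10-3, and 3, 7 and 10 without i33-2-1, i33-2-2 and i33-2-3. As labelled, line 5 against line 2 ranged from 0 to 1205 and moved with each of the 12 libraries, line 5 against line 10 ranged from 2 to 1269 and moved with each but WT-1, and line 10 against line 2 became 25 without WT-3, 5 without i33-10-1 and 7 without i33-5-1.

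Potri.T153000, named from the fit without the library labelled i33-5-2, had 76.1 and 81.0 CPM in line 5 and 30.0 to 36.4 CPM in the other lines and wildtype. It was higher in line 5 than in line 2 by 1.31 ± 0.08 (adjusted p = 0.000187). Potri.009G063400 had 54.4 and 48.6 CPM in line 5, and was higher there than in line 2 by 2.32 ± 0.14 (adjusted p = 0.000187). Potri.014G095600 and Potri.016G062200 were lower in line 5 than in line 2, with log2 differences of -3.50 ± 0.22 and -1.76 ± 0.14 (adjusted p = 0.000187 and 0.000893). Against line 10, Potri.001G256400 was higher in line 5 by 1.85 ± 0.09 (adjusted p = 2.81e-05). Potri.005G174800 was lower in line 10 than in line 2, with a log2 difference of -2.94 ± 0.19 (adjusted p = 0.000996). Potri.019G126400, compared between lines after its values were seen, had 50.1, 47.1 and 41.7 CPM in line 10. It increased from line 10 to line 2 to line 5. The difference was -0.87 ± 0.11 for line 10 minus line 2 (adjusted p = 0.0379). For line 5 minus line 2 it was 0.59 ± 0.13 (adjusted p = 0.0320). With all libraries Potri.001G093600 was lower in line 5 than in line 2, with a log2 difference of -1.76 ± 0.18 (adjusted p = 0.0279), at 9.79 to 14.0 CPM against 31.8 to 46.4 CPM.

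Some of the called entries stood next to each other in the order of the identifiers. Runs of at least 4 consecutive tested identifiers called in the same direction were counted after the data were seen, and without the library labelled i33-5-2 there were 18 runs with 105 entries for line 5 against wildtype, 21 with 105 for line 2, 0 for line 10, and 5 with 29 for i33 as a construct. With all 12 libraries there were 0 runs for line 5, 4 with 29 entries for line 2, 0 for line 10 and 0 for i33. Line 10 had 62 and 6 calls in these fits, so few runs could form there. Near Potri.009G154300, Potri.009G154400 had 1.29 to 2.04 CPM in line 10 and 0.0467 to 0.228 in wildtype. Potri.009G155000 had 4.33 to 5.87 CPM against 0.772 to 1.90, while Potri.009G153900 and Potri.009G155200 overlapped the wildtype range. These neighbours were chosen after their values were seen. The 7 entries from Potri.009G062800 to Potri.009G063400 summed to 25.6 to 40.3 CPM in wildtype and to 725 and 1019 CPM in i33-5-1 and i33-5-3, with a median log2 difference of 5.52. Among the other libraries i33-10-2 was highest, at 129 CPM. The 7 entries from Potri.010G060900 to Potri.010G061900 summed to 9.54 to 10.4 CPM in wildtype, 17.6 to 29.5 CPM in line 10, 25.8 to 30.6 CPM in line 2, and 88.4 and 152 CPM in i33-5-1 and i33-5-3. The 12 entries from Potri.019G122100 to Potri.019G123200 summed to 1510 to 3143 CPM in wildtype and to 279 and 193 CPM in i33-5-1 and i33-5-3, with a median of -3.40. The 12 entries from Potri.001G040200 to Potri.001G041300 were higher in i33 as a construct, with a median of 1.82. They summed to 250, 382 and 252 CPM in wildtype, 390 CPM in the library labelled i33-5-2 and 452 to 741 CPM in the other 8. Their member Potri.001G040800 averaged 362% of the wildtype mean in these 8, and 453% in i20, 652% in i34 and 427% in i69. It averaged 557% in i35, 390% in o65 and 514% in o66, so its rise was not particular to i33. The other members were not looked up in those constructs. Over the 12 libraries of i33 and wildtype, members of these 4 runs had a median correlation of 0.927, 0.504, 0.990 and 0.998, in order. Members were chosen for being called in the same direction. How the counting treated reads that overlap several entries is not given in the sources used here, and whether the entries of a run are independent was not tested.

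**Figure D5:**
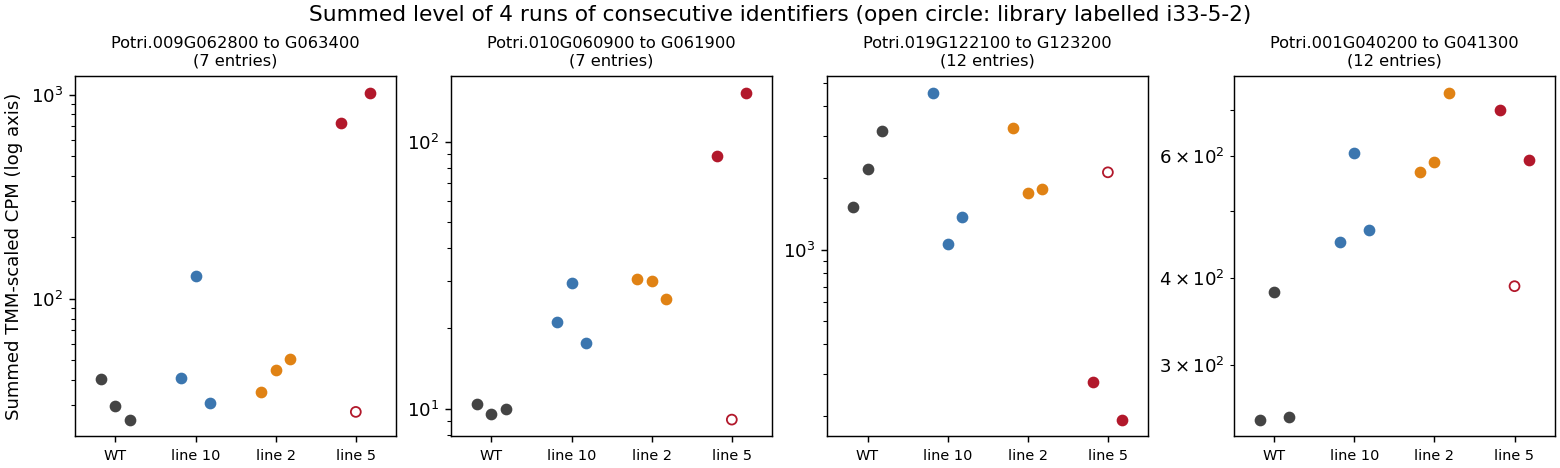
Summed levels in CPM, on log axes that differ between panels, of 4 runs of consecutive identifiers, with each point standing for a wildtype or i33 library and the open circle for the library labelled i33-5-2. The run from Potri.009G062800 reaches 725 and 1019 CPM in i33-5-1 and i33-5-3 against 25.6 to 40.3 CPM in wildtype.

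The remaining comparisons set i33 against the constructs most like it in the same batch, in a fit of 5 groups with wildtype. Against i35, which adds PtrCAD2 to the target, 13746 of 31045 entries differed (44.3%), 6663 higher and 7083 lower in i33. Without the library labelled i33-5-2, 13470 of 31033 differed (43.4%), 6429 higher and 7041 lower. The entry found by the PtrCAD2 labels, Potri.016G078300, did not pass, with a log2 difference of 0.82 ± 0.55 (adjusted p = 0.229). Without that library it was 0.78 ± 0.57 (adjusted p = 0.276). The i35 libraries had taken part in choosing this entry. Potri.009G095800 averaged 24.9% of the wildtype mean in i33 without that library and 5.97% in i35. Whether the count reflects the added target or this level was not tested. Against o65 and o66 the counts were 7371 (23.7%), 3932 higher and 3439 lower, and 7475 (24.1%), 4007 higher and 3468 lower. Against i34 they were 1908 (6.15%), 1045 higher and 863 lower, and 2518 (8.11%), 1426 higher and 1092 lower. These fits took the pools of a line as independent. With the pools of each line summed, the counts without the library labelled i33-5-2 were 3242 for i35, 410 for o65 and o66, and 1 for i34.

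Potri.009G095800 was higher in i33 than in i35 by 2.05 ± 0.30 (adjusted p = 1.04e-06) and lower than in i34, with a difference of -1.99 ± 0.31 (adjusted p = 0.000241) without the library labelled i33-5-2, and it passed in the same direction with it. The i35 and i34 libraries had taken part in choosing this entry, so these p-values are not independent of that choice. With the pools of each line summed the difference from i34 did not pass (adjusted p = 0.230), while that from i35 did (adjusted p = 0.0244). Potri.003G097300 was higher in i33 than in i35 by 1.42 ± 0.11 (adjusted p = 8.88e-12), at 44.6 to 77.6 CPM against 15.2 to 28.1 CPM, with 45.5 to 48.5 CPM in wildtype. Potri.005G015400 was lower in i33 than in i35, with a log2 difference of -1.29 ± 0.10 (adjusted p = 5.15e-12), at 21.1 to 33.7 CPM against 51.3 to 74.7 CPM, and i33 overlapped wildtype at 24.6 to 27.4 CPM. Against i34, Potri.010G027200 was higher in i33 by 1.70 ± 0.22 (adjusted p = 4.91e-05), at 3.35 to 5.76 CPM against 0.891 to 2.34 CPM. Potri.001G348300 was lower in i33 than in i34, with a log2 difference of -1.22 ± 0.18 (adjusted p = 0.000223), at 2.68 to 4.36 CPM against 6.01 to 13.4 CPM, and the wildtype pools spread from 2.52 to 9.60 CPM. With the pools of each line summed, Potri.010G027200 and Potri.001G348300 did not pass (adjusted p = 0.0992 and 0.268). Against o65 and o66, Potri.016G078300 was lower in i33, with a log2 difference of -7.08 ± 0.70 (adjusted p = 1.54e-08), and Potri.010G200500 was higher by 1.64 ± 0.17 (adjusted p = 2.77e-08), with a median of 53.6 CPM against 14.9 CPM. Potri.016G078300 had been chosen for its rise in these same o65 and o66 libraries, so its difference here was largely fixed by that choice.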

How the data were processed

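The deposited values are raw counts per gene. For these the authors made TruSeq libraries for the Illumina GAIIx, aligned the reads to version 3.0 of the P. trichocarpa genome with Bowtie and TopHat, and counted them with BedTools. The treatment of strand and of reads that map to or overlap several genes is not given in the sources used here. Of the table's columns, 377 matched a label and 1 matched none and was not used. The total counts of the 12 libraries compared were 12.3 to 37.6 M.

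Counts were tested in R 4.3.3 with edgeR 4.0.16 (filterByExpr, TMM factors, glmQLFit and glmQLFTest) and Benjamini-Hochberg adjustment over all entries tested, with 0.05 as the threshold. Standard errors are the log2 difference divided by the square root of F. DESeq2 1.42.0, other scalings and filters, a replicate block, lines summed over pools and each library left out were alternatives. The edgeR and DESeq2 tests and the comparison of pairs of libraries were tested on simulated data. CPM were computed here with the TMM factors of the 59 libraries of batch 3.

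The members and lists were chosen with earlier results of these data known. The entries printed are at most 2 per direction and comparison, by the smallest p among those past the threshold whose groups did not overlap, and others are said to be chosen after their values were seen. The gene lists and cell type markers that had been planned were not run, since no identifier matched the reference table. Potri.009G095800 and Potri.016G078300 were chosen by label pattern after the data were seen, and Potri.007G088100 and Potri.001G036900 are described in further lines for the same reason.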

Additional observations from a re-analysis of the deposited data

Results flagged for a closer look

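Among the 9 i33 libraries, 60 measures were checked for a library far from the others by Dixon's test at the 95% level, and 12 were past its limit. Chance flags about 1 in 20 groups, and many of the entries were chosen in fits without the library labelled i33-5-2. The total of i33-10-1 was 37.6 M counts, against 12.3 to 22.5 M in the others. The 10 largest entries took 9.66% of the counts of i33-2-1, against 3.70 to 4.93%, and Potri.005G132800 had 16103 CPM there, against 537 to 6582 CPM.

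The other entries stood apart in the library labelled i33-5-2. It was higher than the others at Potri.001G348300 with 10.5 CPM (2.68 to 4.36 in the others), Potri.005G178900 with 41.3 CPM (26.4 to 32.7), Potri.006G233600 with 38.7 CPM (9.60 to 13.5), Potri.007G126600 with 39.6 CPM (21.4 to 26.4) and Potri.008G195000 with 166 CPM (79.1 to 113). It was also higher at Potri.009G156600 with 307 CPM (53.5 to 148), Potri.009G156700 with 36.3 CPM (4.67 to 14.1) and Potri.009G156800 with 349 CPM (60.6 to 170). These last entries were chosen after their values were seen. The library labelled i33-5-2 was lower at Potri.014G072300, with 27.9 CPM (61.6 to 92.7).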

How the results depend on the processing

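The cause of the changes below was not tested. In this paragraph the comparisons are those of edgeR with all 12 libraries as labelled, and values are counts of entries called. DESeq2 called 551 for i33 against wildtype, 4304, 71 and 305 for lines 2, 5 and 10 against wildtype, 1500 for line 5 against line 2, 816 for line 5 against line 10, 579 for line 10 against line 2, and 2016 in the test of all 3 lines. Without TMM factors the counts were 1001 for line 2, 6 for line 5 against line 2, 6 for line 10 against line 2, and 17 for all 3 lines. With a mean of at least 10 CPM they were 2 for line 10, 256 for line 5 against line 2 and 1 for line 5 against line 10, and with no filter 39 for line 5 against line 2. Without WT-2 and i33-5-2, an alternative added after the data were seen, they were 26 for i33, 2206 for line 5, 20 for line 10, 1137, 1219 and 36 for line 5 against line 2, line 5 against line 10 and line 10 against line 2, and 1362 for all 3 lines. For i33 against wildtype the count was 1466 without line 5 and 9 with the dispersion shared with all CAD libraries. With counts summed per line they were 3833 against i35, 1 against i34 and 494 against o65 and o66. Without line 2 they were 807 against i34 and 4092 against o65 and o66, and without line 10 4587 against the latter.

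Without the library labelled i33-5-2, DESeq2 called 3395 for i33, 1525 for line 10, 2245, 2407 and 1045 for line 5 against line 2, line 5 against line 10 and line 10 against line 2, and 3564 for all 3 lines. For i33 the count was 0 with counts summed per line in edgeR, with 4688 at an unadjusted p under 0.05 and no DESeq2 run for this setting, 3 without line 2 and 782 with the shared dispersion. For line 10 it was 37 without TMM factors and 174 with a mean of at least 10 CPM, which gave 37 for line 10 against line 2. Summed per line, the counts were 3242 against i35, 1 against i34 and 410 against o65 and o66. Without line 2 they were 1226 against i34 and 3606 against o65 and o66, and without line 10 4745 against the latter. The median distance of the 9 i33 libraries rose from 0.421 to 0.513 with a pseudocount of 0.1, and was 0.436 without the library labelled i33-5-2. Potri.009G095800 in line 5 minus line 2 turned from 1.41 to -1.32 without that library and to -1.33 without WT-2 as well, and ranged from -1.32 to 1.92 over the libraries left out in turn. Of 3290 alternatives for the entries named, 2989 stayed on the same side of the threshold. These include any that turned direction where neither fit passed. The call was lost in 221 and gained in 78 with the direction kept, and 2 turned direction with a call in either fit.

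With each library left out in turn, the counts as labelled ranged from 0 to 1458 for i33, 0 to 4547, 0 to 3386 and 1 to 62 for lines 2, 5 and 10, 0 to 1205 for line 5 against line 2, 2 to 1269 for line 5 against line 10, 2 to 25 for line 10 against line 2 and 2 to 1434 for all 3 lines. Against i35, i34 and o65 with o66, i33-5-2 was the only library left out, which gave 13470, 2518 and 7475. Without the library labelled i33-5-2 the ranges were 22 to 1820, 1787 to 4899, 545 to 3550, 4 to 592, 92 to 1879, 247 to 1782, 3 to 303 and 198 to 2362 in the same order. Where a line was left with 1 pool, that pool is assumed to vary like the other groups.

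Of 18 pairs of libraries with the same pool number, 7 had a correlation of deviations over 0.1 (from -0.428 to 0.527, median 0.00869). The largest, 0.527, was WT-2 with the library labelled i33-5-2. Pairs with different numbers had a median of -0.0264, and 5 of 12 libraries correlated best with their own number. No chance level was computed, so whether the pool numbers pair the libraries was not decided. With the pool number as a replicate block, the counts as labelled were 4 for line 5 against line 10 and 6 for line 10 against line 2. Without the library labelled i33-5-2 the block gave 795 for i33, 36 for line 10, 738, 665 and 144 for line 5 against line 2, line 5 against line 10 and line 10 against line 2, and 859 for all 3 lines.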

Other observations

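The 12 entries from Potri.005G132300 to Potri.005G133400 took shares of the counts that differed between pools of the same line. They took 1.00, 4.72 and 1.69% in WT-1, WT-2 and WT-3, 1.55, 0.671 and 1.18% in the pools of line 10, 9.82, 0.918 and 0.890% in those of line 2, and 4.32, 3.15 and 0.503% in those of line 5, where 3.15% is the library labelled i33-5-2. The entries were chosen after their values were seen.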
